A study of Caenorhabditis elegans with 6 samples.

Results

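The genes described here are *gst-4* and *ugt-50*, the 2 conjugation enzyme genes among the 85 genes of the expression table. They were chosen by symbol, as the table's members of the glutathione S-transferase and UDP-glucuronosyltransferase families. Polyadenylated RNA was sequenced from whole *Caenorhabditis elegans* collected as synchronized young adults, about 2000 worms per sample, grown at a common temperature on plates with the *E. coli* strain OP50. The 3 genotypes were *hlh-11* knock-out (KO), *hlh-11* over-expression (OE) and wild type (N2), with 2 libraries each, and N2 is the strain given for all 6. The KO line is a CRISPR/Cas9 frameshift allele, *hlh-11(ko1)*, made in an exon that all transcripts of the gene share. No source used here names the transgene of the OE worms that were sequenced. HLH-11 is a basic helix-loop-helix transcription factor, and the comparisons ask how transcript levels differ when it is missing and when it is in excess.

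Conjugation is the second phase of detoxification, in which an enzyme attaches a polar group to a foreign or reactive compound so that it can be exported. Glutathione S-transferases attach the tripeptide glutathione to electrophilic compounds and products of lipid peroxidation. *gst-4* is one of the most used reporters of oxidative stress in *C. elegans*, where the transcription factor SKN-1 induces it. UDP-glucuronosyltransferases transfer a sugar from a nucleotide sugar to small lipophilic molecules, and *ugt-50* belongs to this family. The WBcel235 annotation holds 44 protein-coding genes named *gst* and 67 named *ugt*, of which 1 each is in the table, and the others were not analysed here.

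The table had been selected on the same libraries. In 60 of the 85 genes the mean was above the wild-type mean in KO and below it in OE, and in the other 25 it was below in KO and above in OE. Whether *gst-4* and *ugt-50* differ between genotypes was therefore part of how they came to be listed, and the tests below describe that choice and are no independent evidence of it. Values are in RPKM, which scales a gene's reads to its length in kilobases and to the depth of the library. Every value corresponded to a whole number of reads within 1e-05 reads, which gave library totals of 16538554 to 24023096 reads. Transcripts of *hlh-11* were not analysed here, so the genotype labels could not be checked with it. Separate cultures are not described for the replicates, so p-values measure the spread between these libraries, which may be technical.

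*gst-4* (WBGene00001752) is a gene of 4 exons on the forward strand of chromosome IV, from 10142225 to 10143099 in WBcel235. The annotated start of *dhs-12*, a short-chain dehydrogenase gene on the same strand, lies inside *gst-4*, and 65 bases of exon belong to both genes. The related genes *gst-2* and *gst-3* lie 164 and 1982 bases away on the other strand, and the sperm gene *msp-38* lies 258 bases downstream, also on the other strand. None of these neighbours was analysed here. *ugt-50* (WBGene00011564) lies on the forward strand of chromosome X, from 12691573 to 12695652, with 5 annotated transcripts of 4 to 11 exons, and the microRNA gene *cel-mir-62* fills one of its introns (12692608 to 12692665). At the other end of *ugt-50*, 340 bases of its exons are also exon of *nhr-26*, a nuclear hormone receptor gene on the reverse strand. Whether the counting used strand is not given, so reads from the shared bases cannot be told apart, and the paralogs of both families may share further reads. The gene lengths that made the reads whole were 796 bases for *gst-4*, against 731 bases of annotated exon, and 1797 bases for *ugt-50*, against 2002.

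**Figure D1:**
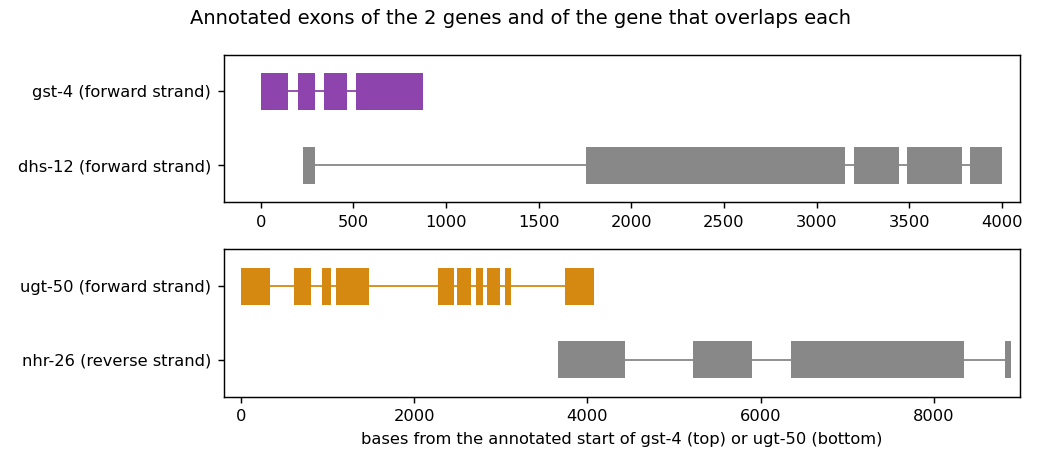
Annotated exons (boxes) of *gst-4* and *dhs-12* (top) and of *ugt-50* and *nhr-26* (bottom), drawn to scale in bases from the annotated start of *gst-4* or *ugt-50* (x axis), with all transcripts of a gene merged on 1 line. The first *dhs-12* exon lies on a *gst-4* exon over 65 bases, and the last *ugt-50* exon lies within an exon of *nhr-26*, the 2 genes sharing 340 bases.

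*gst-4* was low in KO, high in OE and in between in the wild type. It had 16.7 and 18.1 RPKM in the KO libraries, 59.5 and 57.0 RPKM in the OE libraries, and 34.4 and 27.5 RPKM in the wild-type libraries. No genotype overlapped another, so the order KO, wild type, OE from low to high held for every pair of libraries. Such separation was the rule in the table, in which 25 of the 85 genes had this direction by their means. Of all its genes, 28.2% had both KO libraries below both wild-type libraries and 29.4% had both OE libraries above them. Both KO libraries lay below both OE libraries in 29.4%. The values rest on 231 and 274 reads in KO, 905 and 1090 reads in OE, and 598 and 362 reads in the wild type.

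*ugt-50* had the opposite order. It stood at 19.3 and 16.4 RPKM in the KO libraries, 6.03 and 7.13 RPKM in the OE libraries, and 10.9 and 11.1 RPKM in the wild-type libraries. Again no genotype overlapped another, and the order from low to high was OE, wild type, KO. Of the table, 70.6% of genes had both KO libraries above both wild-type libraries, 69.4% had both OE libraries below them, and 70.6% had both KO libraries above both OE libraries. In either direction, KO and wild type did not overlap in 98.8% of genes, OE and wild type in 98.8%, and KO and OE in 100%. These values rest on 604 and 558 reads in KO, 207 and 308 reads in OE, and 429 and 330 reads in the wild type.

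The libraries of a genotype were close but not always within counting error. For *gst-4* the 95% exact Poisson intervals, which cover counting error only, ran from 31.7 to 37.3 RPKM in wild type replicate 1 and from 24.7 to 30.5 RPKM in wild type replicate 2, so they did not overlap. For *ugt-50* the intervals of the KO libraries were 17.80 to 20.9 and 15.03 to 17.77 RPKM, which lay just apart. The other 4 replicate pairs had overlapping intervals. The widest gap between replicates was 1.25-fold, for *gst-4* in the wild type, and the narrowest was for *ugt-50* in the wild type. The within-genotype SD on the log2 scale was 0.14 for *gst-4* and 0.13 for *ugt-50*, the 36th and 40th widest of the 85 genes, whose median was 0.12.

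**Figure D2:**
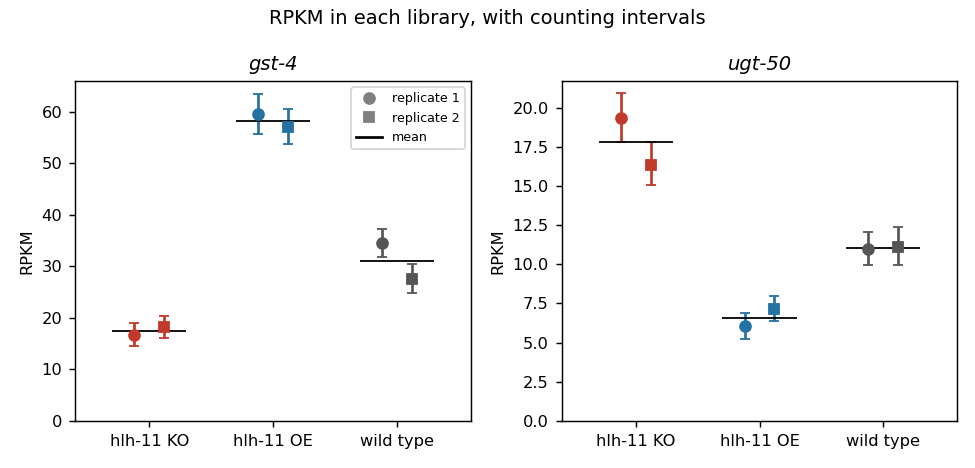
RPKM (y axis, from 0) of *gst-4* (left) and *ugt-50* (right) in each library, with the genotypes on the x axis, circles for replicate 1, squares for replicate 2, bars for the 95% Poisson interval of the reads and lines for the mean of the 2 libraries. *gst-4* is lowest in KO (16.7 and 18.1 RPKM) and highest in OE, whereas *ugt-50* is highest in KO (19.3 and 16.4 RPKM) and lowest in OE.

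In *hlh-11* KO worms *gst-4* fell to a mean of 17.4 ± 1.03 RPKM, against 31.0 ± 4.90 RPKM in wild-type worms, with a ratio of means of 0.562 ± 0.0950 (SD, n = 2 each). *ugt-50* rose to 17.8 ± 2.09 RPKM in KO, against 11.02 ± 0.116 RPKM in the wild type, a ratio of 1.62 ± 0.190. limma was fitted to log2(RPKM + 0.5) of all 85 genes and all 6 libraries, so that a fold change is on that scale, with the Benjamini-Hochberg adjustment of p-values taken across the 85 genes. The log2 fold change in KO was -0.81 for *gst-4* (95% interval -1.12 to -0.50, adjusted p = 1.40e-06) and 0.67 for *ugt-50* (0.36 to 0.97, adjusted p = 6.12e-05). The background of the table is high: 23.5% of its genes were called lower and 70.6% were called higher in KO, 94.1% in either direction, so passing the test does not set either gene apart. The genes called lower in KO numbered 20, and 10 without KO replicate 1. The model assigned 1 SD of 0.16 to all genes. With the spread of each gene alone, on 3 residual degrees of freedom, both genes passed as well, with adjusted p = 0.0227 for *gst-4* and 0.0271 for *ugt-50*. The 95% intervals were then wider, at -1.25 to -0.36 for *gst-4* and 0.24 to 1.09 for *ugt-50*.

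In *hlh-11* OE worms the changes ran the other way, a direction that the selection of the table fixes. *gst-4* rose to 58.2 ± 1.75 RPKM in OE, against 31.0 ± 4.90 RPKM in wild-type worms, with n = 2 each, a ratio of 1.88 ± 0.303 and a log2 fold change of 0.91 (95% interval 0.60 to 1.22, adjusted p = 6.96e-08 from limma). *ugt-50* fell to 6.58 ± 0.784 RPKM in OE, against 11.02 ± 0.116 RPKM in the wild type, a ratio of 0.597 ± 0.0714 and a log2 fold change of -0.71 (-1.02 to -0.40, adjusted p = 2.29e-05 from limma). With the spread of each gene alone the 95% intervals in OE were wider, at 0.46 to 1.36 for *gst-4* and -1.13 to -0.28 for *ugt-50*. Of the table, 29.4% of genes were called higher and 60% were called lower in OE, 89.4% in either direction. The KO and OE comparisons share the wild-type libraries, so their values are not independent of each other.

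Setting KO against OE leaves the wild-type libraries out of the difference. *gst-4* was at 0.299 ± 0.0199 of its OE mean in KO, and *ugt-50* was at 2.71 ± 0.452 times its OE mean in KO (SD from both groups, n = 2 each). The log2 differences were -1.72 for *gst-4* (adjusted p = 1.50e-22) and 1.37 for *ugt-50* (adjusted p = 6.97e-16), both from limma. All 85 genes passed in this comparison (100%), 29.4% lower and 70.6% higher in KO. These very small p-values follow from the spread pooled over genes, and with the spread of each gene alone the adjusted p was 0.00282 for *gst-4* and 0.00336 for *ugt-50*.

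The log2 fold change in KO and the one in OE were also added up, where a total of 0 means changes of equal size in the 2 genotypes. Keeping only opposite signs bounds this total to less than the larger of both changes, so it is not free of the selection of the table. It was 0.10 for *gst-4* (95% interval -0.43 to 0.64, adjusted p = 0.888) and -0.04 for *ugt-50* (-0.58 to 0.49, adjusted p = 0.965), both from limma, and 11.8% of the table passed this test, 5.88% above and 5.88% below 0. A larger change in one genotype was not detectable for either gene. With the spread of each gene alone the 95% interval was -0.67 to 0.88 for *gst-4* and -0.77 to 0.69 for *ugt-50*. The sum for *gst-4* was -0.22 without wild type replicate 2 and 0.42 without wild type replicate 1.

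By size of change, the 2 genes lay on different sides of the median of their own direction in KO, and both beyond it in OE. In KO *gst-4* was the 8th lowest of the 25 genes that were lower, beyond their median of -0.53, and in OE it was the 8th highest of the 25 that were higher, beyond their median of 0.77. *ugt-50* was the 35th highest of the 60 genes that were higher in KO, short of their median of 0.77. In OE it was the 24th lowest of the 60 that were lower, beyond their median of -0.58. In absolute size *gst-4* ranked 35th in KO and 26th in OE, and *ugt-50* ranked 45th and 38th. Neither gene is at an extreme of the table.

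**Figure D3:**
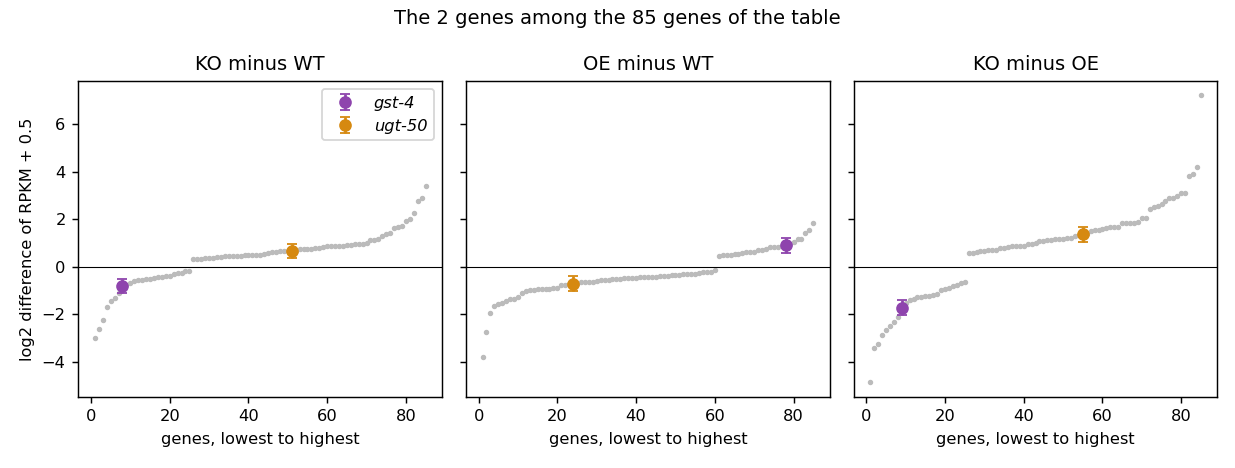
Log2 difference of RPKM + 0.5 (y axis) of the 85 genes in order from lowest to highest (x axis, rank) for KO minus WT, OE minus WT and KO minus OE, with *gst-4* and *ugt-50* in colour and their 95% limma intervals as bars. In KO minus WT *gst-4* is at -0.81, in the lower part of the 25 genes below 0, and *ugt-50* is at 0.67, within the 60 genes above 0.

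RPKM is a level per length, so the 2 genes can also be set beside each other within a library, where the library total cancels. The *gst-4* level was 0.863 and 1.11 times the *ugt-50* level in the KO libraries, 9.87 and 7.99 times in the OE libraries, and 3.15 and 2.48 times in the wild-type libraries. In OE and in the wild type *gst-4* was thus the more abundant transcript in each library. In KO the order was not the same in both: *ugt-50* was ahead in replicate 1 and *gst-4* in replicate 2. This near equality depends on the length used. Per annotated exon length, an alternative added after the data were seen, the ratio was 1.05 and 1.34 in KO, 11.97 and 9.69 in OE, and 3.82 and 3.004 in the wild type, and *gst-4* was ahead in all 6 libraries. A ratio of genotypes for 1 gene does not depend on the length.

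On the log2 scale with 0.5 added to each value, the difference in the ratio of *gst-4* to *ugt-50* was -1.47 for KO minus WT, 1.62 for OE minus WT and -3.09 for KO minus OE. In each of these 3 comparisons the exact permutation test over libraries, two-sided, gave p = 0.333, the smallest that 2 libraries against 2 allow, so it cannot reach 0.05. The adjusted value over the 3 is the same. The libraries of the genotypes did not overlap in the ratio, a separation that the opposite changes of the 2 genes fix. The summed level of both genes was 36.0 and 34.5 RPKM in KO, 65.5 and 64.1 RPKM in OE, and 45.4 and 38.6 RPKM in the wild type, and it followed *gst-4*, the larger term in OE and in the wild type.

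**Figure D4:**
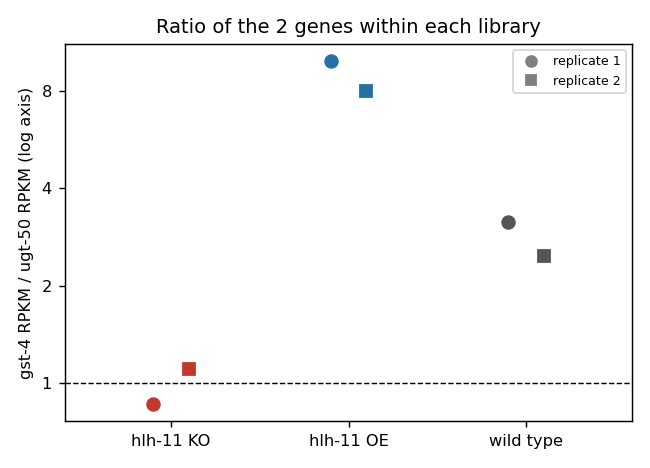
Ratio of *gst-4* RPKM to *ugt-50* RPKM within each library (y axis, log scale) for the 3 genotypes (x axis), with circles for replicate 1, squares for replicate 2 and a dashed line at equal levels. The KO libraries lie on both sides of the line at 0.863 and 1.11, below the wild-type libraries at 3.15 and 2.48 and the OE libraries at 9.87 and 7.99.

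For the other steps of detoxification, gene lists were matched by symbol. The table holds 1 gene of a list of oxidation and reduction enzymes and 1 gene of a list of transporters, both matched by symbol only. Whether these 2 genes act in detoxification was not tested. The other genes of these lists, and those of a list of glutathione and antioxidant genes and of a list of heat shock genes, were not analysed here. *adh-1*, an alcohol dehydrogenase gene, had 41.2 and 41.8 RPKM in KO, 13.8 and 12.99 RPKM in OE, and 21.5 and 20.4 RPKM in the wild type. Its order was that of *ugt-50*, and limma gave a log2 fold change of 0.97 in KO (adjusted p = 9.67e-09). The one in OE was -0.63 (adjusted p = 1.53e-04, limma). *haf-9*, an ABC transporter gene, had 43.9 and 43.1 RPKM in KO, 24.1 and 28.3 RPKM in OE, and 34.3 and 30.8 RPKM in the wild type. It was higher in KO by a log2 fold change of 0.41 (adjusted p = 0.0107), whereas the log2 fold change of -0.31 in OE missed the threshold (adjusted p = 0.0552, both from limma). Of the 4 genes *gst-4*, *ugt-50*, *adh-1* and *haf-9*, 3 were called higher in KO and *gst-4* was called lower, beside 70.6% and 23.5% of the table. In OE 2 were called lower and *gst-4* higher, beside 60% and 29.4% of the table. Counts this near the shares of the table do not set the 4 genes apart.

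The genes nearest to *gst-4* over the 6 libraries were *thn-2*, *T03D3.5* and *ZK105.1*. Nearness is the root mean square difference of log2(RPKM + 0.5), each gene taken relative to its own wild-type mean. It was 0.16, 0.19 and 0.19 in that order, against a median of 1.15 over the 84 other genes. That median is raised by the 60 genes of the direction opposite to *gst-4*. A median over genes of its own direction was not computed. *thn-2*, which encodes a thaumatin-like protein, had 18.3 and 16.5 RPKM in KO, 53.5 and 46.7 RPKM in OE, and 27.8 and 28.4 RPKM in the wild type. These levels are close to those of *gst-4* in each genotype. *T03D3.5* had the same order at a lower level, with 8.01 and 9.86 RPKM in KO, 23.6 and 24.9 RPKM in OE, and 13.4 and 12.7 RPKM in the wild type. *ZK105.1* stood at a higher level, with 57.4 and 53.96 RPKM in KO, 253 and 237 RPKM in OE, and 128 and 109 RPKM in the wild type.

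The genes nearest to *ugt-50* were the cysteine protease gene *tag-196*, *dsc-4*, a gene for a microsomal triglyceride transfer protein subunit, and the aspartyl protease gene *asp-4*. Their differences from *ugt-50* were 0.11, 0.14 and 0.15 on the log2 scale, against a median of 0.34 over the 84 other genes. This median is smaller than that for *gst-4* because 60 of the 85 genes share the direction of *ugt-50*. *tag-196* had 49.5 and 44.2 RPKM in KO, 17.2 and 18.0 RPKM in OE, and 28.6 and 25.8 RPKM in the wild type. With its sign reversed, the profile of *ugt-50* differed from that of *gst-4* by 0.18, which is a description of 6 libraries in a table chosen for such changes. Differences of other sign-reversed genes from *gst-4* are not given here, so the 0.18 cannot be ranked among them.

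**Figure D5:**
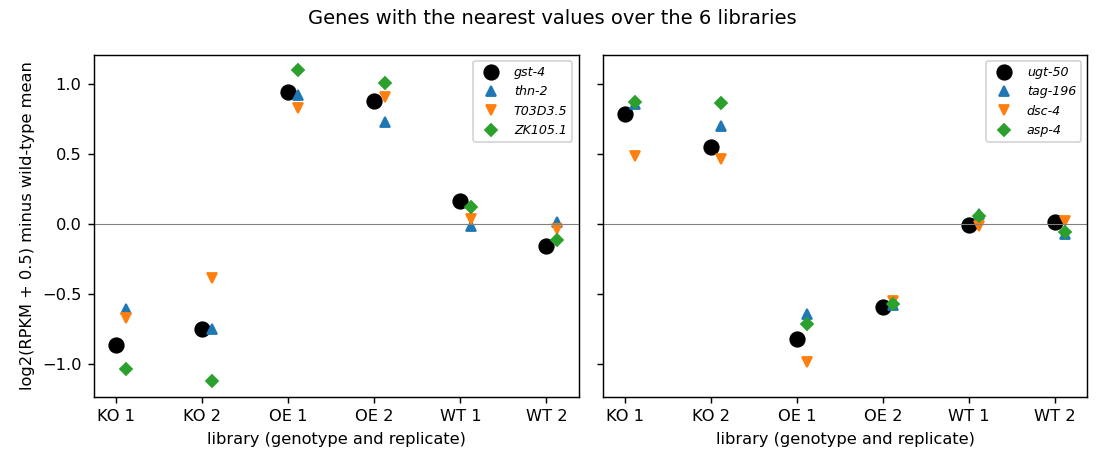
Log2(RPKM + 0.5) minus the gene's wild-type mean (y axis) in each of the 6 libraries (x axis, genotype and replicate) for *gst-4* with its 3 nearest genes (left) and *ugt-50* with its 3 nearest genes (right). The nearest gene differs by 0.16 for *gst-4* (*thn-2*) and by 0.11 for *ugt-50* (*tag-196*), as root mean squares over the libraries.

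The table also holds genes of other tissues of the whole worm. Since every gene of it was kept for opposite KO and OE changes, and 70.6% were called higher in KO, their sums describe the listed genes and not the tissues. The 6 sperm genes of the table had a summed level of 1288 to 1328 RPKM in KO, 417 to 489 RPKM in OE, and 636 to 806 RPKM in the wild type, and the 7 cuticle collagen genes summed to 8018 to 8673 RPKM, 4268 to 4567 RPKM and 5404 to 6024 RPKM in the same order. Both sums had the order of *ugt-50* and the reverse of that of *gst-4*. Among the collagens, the OE libraries of *col-144* (22.8 and 28.0 RPKM) overlapped its wild-type libraries (35.1 and 21.8 RPKM). Of the intestinal list, *act-5*, *asp-3*, *asp-4*, *asp-5* and *asp-13* summed to 3056 to 3057 RPKM in KO, 1651 to 1878 RPKM in OE, and 2140 to 2172 RPKM in the wild type. The members did not all share that order: *asp-13* had 121.5 and 132.7 RPKM in KO, 223.7 and 245.4 RPKM in OE, and 169.9 and 160.4 RPKM in the wild type, the order of *gst-4*. Its log2 fold change by limma was -0.38 in KO (adjusted p = 0.0192), whereas OE gave 0.50 (adjusted p = 0.00226). The defining intestinal genes *elt-2* and *ges-1*, and any marker on the muscle, neuron, excretory cell and oocyte lists, were not analysed here. In whole worms, fewer cells of a type and less RNA per cell cannot be told apart. The part of tissue make-up in the values of *gst-4* and *ugt-50* was not tested.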

How the data were processed

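mRNA of 6 libraries (HiSeq2500) was aligned by the authors to WBcel235 with TopHat2 after FastQC 0.11.5, and DESeq2 was used for their differential expression, per the labels and the study's methods. No source used here gives the counting per gene or its use of strand. Deposited by the authors were RPKM values, 1 column per library, for 85 genes whose KO and OE changes have opposite signs.

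Identifiers of all 85 genes were matched to symbols. Library totals and gene lengths were recovered as the numbers that turn every RPKM into whole reads (tolerance 1e-05 reads), with totals from the 33 genes of few enough reads, their scale resting on annotated exon lengths, which 61 recovered lengths matched within 10%. Whether totals count mapped or assigned reads is not given. No filter was applied. On log2(RPKM + 0.5), limma 3.58.1 (R 4.3.3) was run with all 3 genotypes and a constant prior, two-sided, with adjustment over 85 genes and significance at 0.05, and it estimated infinite prior degrees of freedom. Scripts were tested on simulated data. The SD of a ratio of means combines the relative SDs of both groups.

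By rule, the genes named are the 2 members, the 3 genes nearest to each, and the members of 5 detoxification lists. Genes of 7 tissue lists (sperm, cuticle collagen, oocyte and yolk, intestine, muscle, neuron and excretory cell) were summed, and annotated neighbours of the members are given by position. Outside the rule, *asp-13* and *col-144* were singled out after their values were seen. The members, lists and tests were chosen with earlier results of these data known. Alternatives were other pseudocounts (0.1 and 1 RPKM), a filter (1 RPKM in 2 libraries), each replicate left out, the replicate number as a block, 2 genotypes per fit, limma-trend, no empirical Bayes, and voom on the recovered reads. Protein and promoter sequences were not used here.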

Additional observations from a re-analysis of the deposited data

How the results depend on the processing

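The KO minus WT, OE minus WT and KO minus OE log2 fold changes of *gst-4* and *ugt-50* kept their direction and stayed past the threshold of 0.05 in each of the 14 alternatives run for each. Their largest adjusted p over these was 0.0227 for *gst-4* in KO, 0.0214 for *gst-4* in OE, 0.0271 for *ugt-50* in KO and 0.0250 for *ugt-50* in OE, each without empirical Bayes. With 1 library left out, where the lone library is assumed to vary like the other groups, the KO log2 fold change ran from -0.97 to -0.65 for *gst-4* and from 0.55 to 0.78 for *ugt-50*, and the OE one from 0.75 to 1.07 and from -0.82 to -0.59. The sum of the KO and OE changes, past the threshold in no alternative, turned sign: without 1 library it ran from -0.22 to 0.42 for *gst-4* and from -0.16 to 0.07 for *ugt-50*, where the sign turned without KO replicate 2 (0.0747) and without OE replicate 1 (0.0715).

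The background counts moved more. The genes called lower in KO numbered 20 of 85, and 10 without KO replicate 1. With the replicate number as a block, 79 genes passed in KO and 73 in OE, against 80 and 76 without it, and no call of *gst-4* or *ugt-50* changed. The replicates share only a number: same-numbered libraries deviated from their group means with correlations of -0.14 (KO and WT), -0.11 (OE and WT) and -0.13 (KO and OE) over the 85 genes. In fits of 2 genotypes added after the data were seen, crossed pairing gave 83, 79 and 85 calls for KO minus WT, OE minus WT and KO minus OE, against 80, 67 and 85 with equal numbers paired. Precision is limited by 2 libraries per genotype and by the reads, which were at least 207 for either gene in any library.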
